A study of Mus musculus with 10 samples.

Results

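The subject here is the Hox genes of mouse embryonic fibroblasts (MEFs), connective tissue cells grown from embryos, in RNA sequencing of male and female cells. The members are the 39 protein-coding genes of the HoxA, HoxB, HoxC and HoxD clusters, taken by gene symbol from a table of 52550 genes, and no measured value was used to choose them. Both groups were C57BL/6 cells from embryonic day 14 at passage 3, grown in DMEM with serum, with 5 libraries labelled male and 5 labelled female. Total RNA had been depleted of ribosomal RNA and made into libraries with a directional kit. Neither the body part of origin nor whether each library stands for its own embryo or culture is stated, and the spread behind every p-value is therefore that of the libraries alone and may be technical.

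The libraries held between 30662616 and 45859721 unique gene reads, of which between 7275 and 11239 lay in the 39 Hox genes. All 13 fixed fibroblast markers were detected, with a summed level between 24347 and 32123 CPM, the usual scaling of counts to library size. Fn1, which encodes fibronectin, led them at 8421 to 11318 CPM, and Lum was the lowest at 1.41 to 7.24 CPM. The summed levels of the other marker lists were lower, between 43.9 and 107 CPM for macrophages, 88.4 and 157 for endothelium, 73.3 and 139 for epithelium and 69.3 and 122 for skeletal muscle. The neural and glial list summed to between 139 and 208 CPM, most of it from Nes, an intermediate filament gene. The cartilage and bone list was the largest of these others, at 621 to 1198 CPM, most of it from Spp1. In bulk RNA, fewer cells of a type and less RNA per cell cannot be told apart.

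Hox genes encode homeodomain transcription factors that give cells their place along the axes of the body. In each cluster the order of the genes along the chromosome follows the order in which they are used from head to tail, and genes at the same place in different clusters form a paralog group. The low-numbered groups act toward the head, and the high-numbered groups toward the tail. In HoxA and HoxD the high-numbered groups also act along the limb, from the upper arm out to the digits. Fibroblasts in culture are known to keep a Hox pattern that reflects the body site they came from.

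Because Hoxa13 and Hoxd13 varied together between libraries while Hoxd1 had almost no reads, the 250 bases before the RefSeq start of these genes are shown beside those of Hoxd11, with each CG dinucleotide in capitals. The sequences are from RefSeq on build GRCm38.p6, each 5′ to 3′ on the strand of its gene. Hoxa13 lies on the minus strand (chr6:52260881-52261130). Hoxd13 (chr2:74667975-74668224), Hoxd1 (chr2:74762730-74762979) and Hoxd11 (chr2:74679308-74679557) lie on the plus strand.
Hoxa13: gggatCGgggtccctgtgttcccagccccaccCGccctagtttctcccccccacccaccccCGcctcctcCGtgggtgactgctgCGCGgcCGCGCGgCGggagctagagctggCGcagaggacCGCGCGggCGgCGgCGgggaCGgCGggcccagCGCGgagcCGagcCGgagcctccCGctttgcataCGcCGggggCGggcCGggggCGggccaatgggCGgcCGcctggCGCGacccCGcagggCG
Hoxd13: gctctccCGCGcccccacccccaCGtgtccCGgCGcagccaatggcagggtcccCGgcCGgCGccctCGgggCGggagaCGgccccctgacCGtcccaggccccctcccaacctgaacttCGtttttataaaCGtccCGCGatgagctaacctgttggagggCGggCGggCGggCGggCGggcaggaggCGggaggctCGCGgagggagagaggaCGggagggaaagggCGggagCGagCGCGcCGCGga
Hoxd1: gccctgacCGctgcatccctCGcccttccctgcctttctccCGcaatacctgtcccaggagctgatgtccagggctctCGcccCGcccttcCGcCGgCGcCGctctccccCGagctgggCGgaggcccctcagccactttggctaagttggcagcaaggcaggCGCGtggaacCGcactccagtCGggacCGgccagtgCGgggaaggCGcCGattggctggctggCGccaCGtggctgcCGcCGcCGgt
Hoxd11: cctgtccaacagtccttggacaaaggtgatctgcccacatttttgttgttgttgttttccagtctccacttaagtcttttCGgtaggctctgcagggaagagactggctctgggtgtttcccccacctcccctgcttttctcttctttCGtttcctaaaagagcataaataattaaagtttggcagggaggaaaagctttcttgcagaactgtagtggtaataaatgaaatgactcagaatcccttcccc
The Hoxa13 window held 35 CG dinucleotides, a number reached by 2.97% of the 32851 promoter windows of the same length, and the Hoxd13 window held 31, reached by 5.19%. Hoxd1, which was near the floor of detection in these cells, held 24, reached by 11.98%. The Hoxd11 window held 2, a number that 81.2% of all windows reach. A second RefSeq start of Hoxd11 had 20. The letters TATAAA, searched on both strands, were in the Hoxd13 window and in 4 of the 24 Hox windows found, against 12.4% of all windows. Over those 24 windows, which cover 22 of the 39 genes, the median was 12.5 CG dinucleotides against 6 over all windows. A match describes these letters and nothing about a factor.

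The clusters are packed so tightly that the way reads were counted decided how much of each gene was seen. The authors deposited unique reads and total reads per gene, and how they told them apart is not given in the sources used here. Of the 39 Hox genes, 16 had at least 95% of their total gene reads counted as unique, and in these the share was 99.0% or more. In 13 genes it was between 2.28% and 15.7%. Hoxa3, a gene of the neck and upper body, was the extreme, with 159 unique reads of 6967 over the 10 libraries. Its model, chr6:52169062-52213336 on mm10, spans those of Hoxa4, Hoxa5 and Hoxa6. In HoxC, the model of Hoxc5, chr15:102967443-103017429, spans Hoxc6, Hoxc8 and Hoxc9, which had unique shares of 7.67%, 10.7% and 9.27%. The reads set aside from these 3 genes, 19723 in all, outnumbered the 3299 set aside from Hoxc5 itself, so overlapping reads had not been entered in full under both genes.

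Of the 23 Hox genes under 95%, 22 overlapped another gene model, against 1 of the 16 others, which is Hoxa9 with the microRNA gene Mir196b inside it. For 8 genes the only overlap was with a model on the opposite strand, and their unique shares still lay between 8.37% and 83.1%. Hoxb2 and Hoxb5, at 9.65% and 8.37%, are overlapped only by the antisense genes Hoxb3os and Hoxb5os. The library kit keeps strand, but whether strand was used in counting is not given in the sources used here, so reads of such a gene and of its antisense partner cannot be told apart. Among the 16602 genes tested later, the median unique share was 98.7%, and 2.55% of them lay under 20%.

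**Figure D1:**
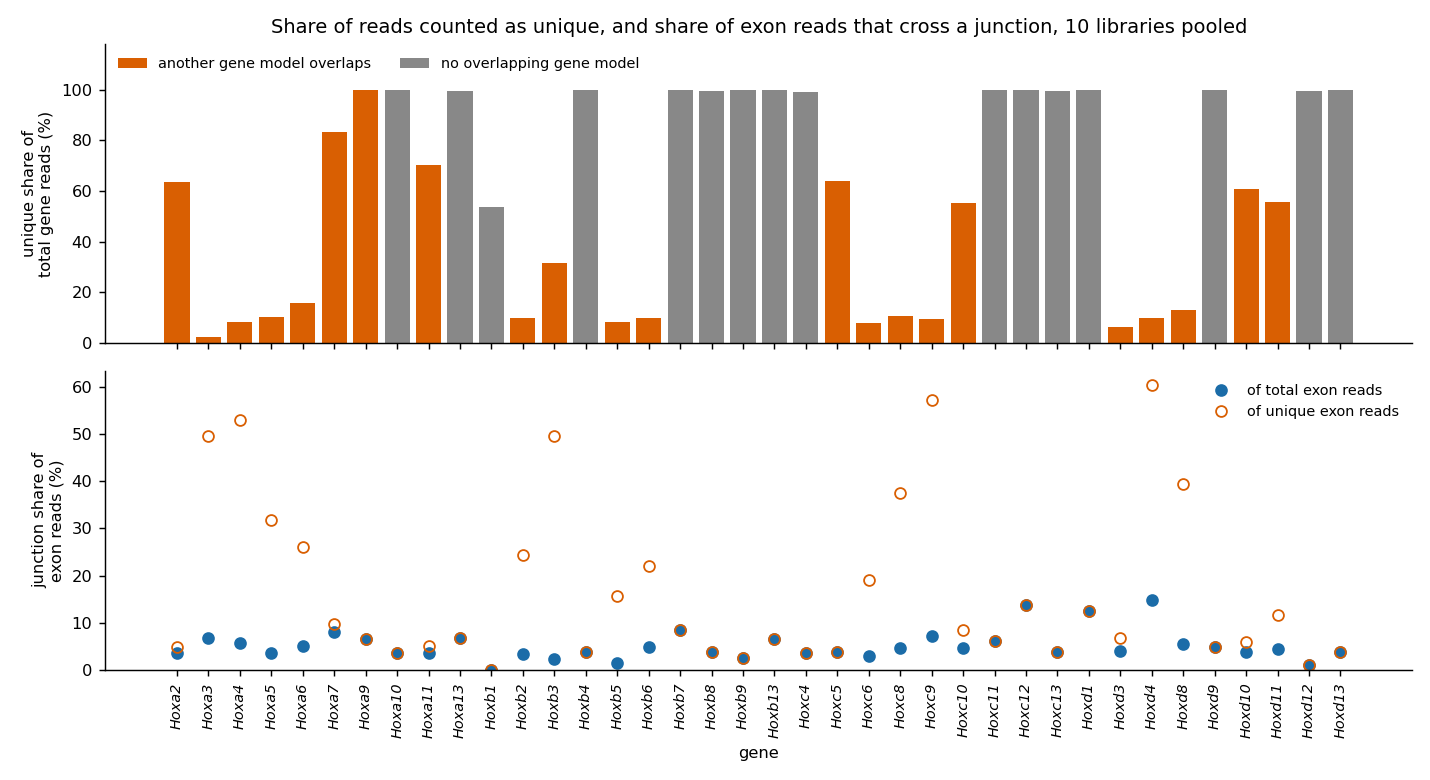
The upper panel gives, for each of 38 Hox genes, unique gene reads as a percentage of total gene reads over the 10 libraries, with bars coloured by whether another gene model overlaps. The lower panel gives reads across exon junctions as a percentage of exon reads, for total and for unique reads. The genes with the shortest bars, such as Hoxa3 at 2.28%, are those whose unique reads lie mostly far above the total reads in the lower panel.

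The unique reads that remained in the overlapped genes were of another kind. In the 13 genes under 20%, the median share of unique exon reads that crossed an exon junction was 31.7%, against 4.79% of total exon reads in the same genes. In the 16 genes above 95% the medians were 4.36% and 4.35%. The junction share of unique exon reads reached 60.4% in Hoxd4, 57.3% in Hoxc9 and 53.1% in Hoxa4, where total exon reads gave 14.9%, 7.13% and 5.68%. Unique intron reads were 0 in 12 of the 13 genes, Hoxd3 being the other. For these genes the total reads are therefore given beside the unique reads in what follows.

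By exon reads per kb of exon, scaled to the exon reads of the library (RPKM), Hoxb9 had the highest level of the 39 genes on either scale. It was at 26.4 ± 4.49 by unique exon reads and 22.7 ± 3.83 by total exon reads (SD, n = 10), and by total exon reads was above Hoxc6, the next gene, in 10 of 10 libraries. In male replicate 5 Hoxd13 reached 15.5 beside 15.4 for Hoxb9. By total exon reads the next 6 were Hoxc6 at 9.09, Hoxc10 at 8.54, Hoxa11 at 8.40, Hoxa10 at 8.06, Hoxd13 at 7.70 and Hoxc8 at 7.42, and the steps between neighbours within these 6 were smaller than the spread between libraries. Hoxc8 stood above the gene after it, Hoxb6 at 4.83, in 10 of 10 libraries. These genes belong to the trunk (Hoxc6, Hoxc8), the hind body (Hoxc10) and the limb (Hoxa10, Hoxa11, Hoxd13). By unique exon reads Hoxc6 was 18th of 39 at 1.51 ± 0.238 and by total exon reads it was 2nd at 9.09 ± 1.23. Hoxc8 was 22nd and 7th in the same way.

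The low end of the order was set apart more clearly. By total exon reads, 31 of the 39 genes had a mean level of at least 1. Hoxa3 at 0.664 ± 0.173 was above Hoxd3 at 0.148 ± 0.113 in 10 of 10 libraries. Hoxd1 at 0.0268 and Hoxb1 at 0.0182, the members that act nearest the head, did not differ beyond their spread, and each had no total exon read in several libraries. In all, 5 of the 38 steps between neighbours in this order were larger than the SD of both genes.

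**Figure D2:**
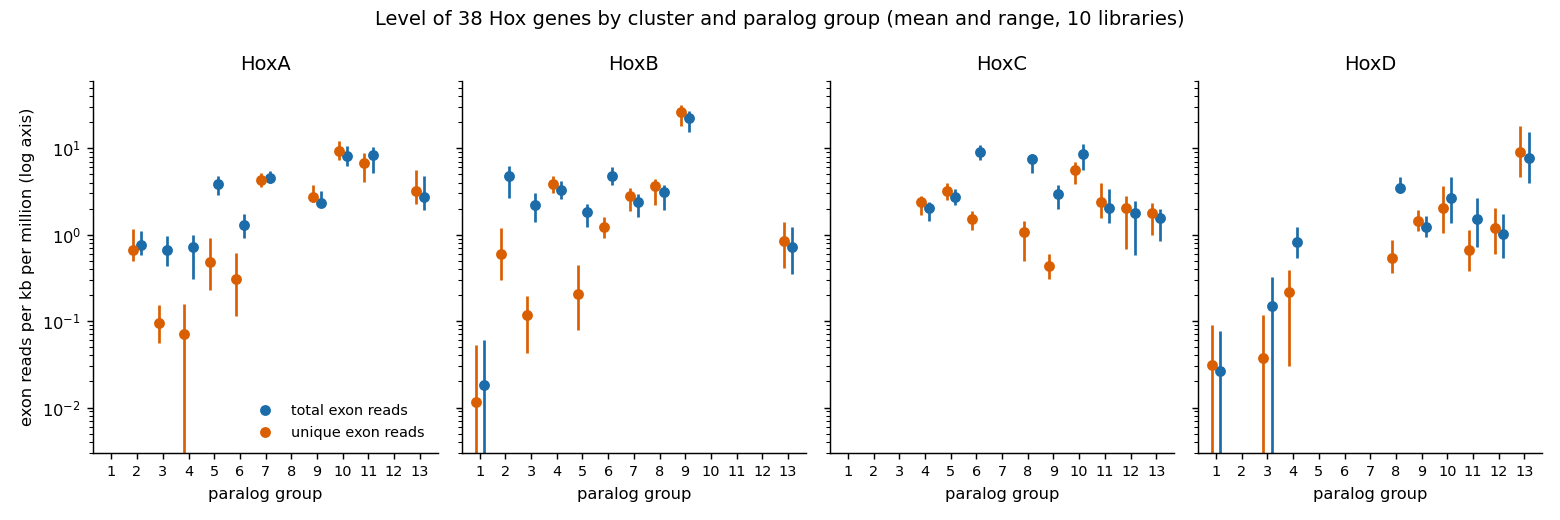
Level of 38 Hox genes in exon reads per kb scaled to the library (RPKM), on a log axis, by cluster and paralog group. Points are means over 10 libraries and lines run from the lowest to the highest library, cut at the foot of the axis where a library had no read. Hoxb9 stands highest at 26.4 by unique and 22.7 by total reads, and the 2 scales part in HoxC groups 6 to 9 and HoxA groups 3 to 6.

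By unique exon reads, HoxB held 38.2% ± 6.07 of the summed Hox level per library, HoxA 27.9% ± 3.35, HoxC 19.5% ± 2.89 and HoxD 14.4% ± 5.14 (SD, n = 10). By total exon reads HoxB held 33.3%, HoxC 27.7%, HoxA 25.3% and HoxD 13.6%, so that HoxC and HoxA differed by less than their spread on that scale. Paralog group 9 had the largest sum on both scales, 30.9 ± 4.28 by unique and 29.2 ± 4.08 by total exon reads on the RPKM scale, most of it Hoxb9. Group 10 followed at 17.0 ± 1.86 and 19.3 ± 2.14. Group 6, which holds Hoxc6, was at 3.04 by unique and 15.2 by total reads. Groups 2 and 3, which act in the hindbrain and neck, summed to 5.49 and 3.01 by total reads.

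By unique reads, introns made up a smaller share of Hox gene reads than of all gene reads. Over the 39 genes pooled, 15.9% ± 2.19 of unique gene reads lay in introns (SD, n = 10), against 22.5% to 28.6% of all unique gene reads in the same libraries. The pooled share was 15.5% ± 2.88 in males and 16.4% ± 1.38 in females, which differed by less than the spread between libraries. With total reads the pooled share was 25.8% ± 2.98, a value that takes in reads of genes lying inside the introns of others. The unique share in turn lacks intron reads of overlapped genes, since 12 of the 13 genes under 20% unique had none. A range over all total gene reads is not given here, so the pooled gap is stated for unique reads only. The 28 genes that overlap no other Hox gene gave 14.1% ± 1.74 of unique reads.

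Single genes ranged widely. Hoxa11, Hoxb8 and Hoxd12 had intron shares of unique gene reads of 1.36%, 2.16% and 1.18%. Hoxc4, a gene of the neck with 99.0% of its reads unique, had 56.2%. Hoxb3 had 91.7% by unique and 43.2% by total reads, and Hoxd11 54.3% and 31.1%. Their unique shares of all gene reads were 31.4% and 55.7%. Hoxa3 was listed at 0 by unique reads and had 81.2% by total reads. The median over tested Hox genes was 3.88% by unique and 10.7% by total reads, and the median over all tested genes 23.1% and 23.4%.

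The study compares the sexes. With edgeR's quasi-likelihood test on unique gene reads, 34 of the 39 Hox genes had enough reads to be tested, and none was called at an adjusted p under 0.05, against 0.0904% of all 16602 genes. The smallest adjusted p was 0.448, for Hoxa13. DESeq2 and limma-voom also called 0, with a smallest adjusted p of 0.0523 in DESeq2 (Hoxd11) and 0.424 in limma-voom (Hoxd13). At an unadjusted p under 0.05 in edgeR there were 15, against 5.55% of all genes in the same test. DESeq2 gave 16 and limma-voom 12, and the share of all genes under these tests is not given here. Of the 15, 9 were higher in females, a direction that held 2.05% of all genes, and 6 were higher in males, against 3.49%. With total gene reads, 37 were tested, 0 were called (0.0892% of all genes) and 17 had an unadjusted p under 0.05, against 5.43% of all genes. Of these 11 were higher in females, against 1.94% of all genes, and 6 in males, against 3.49%. Without male replicate 3 the 15 fell to 9 and those higher in males from 6 to 3, and without male replicate 5 or female replicate 5 the 15 became 10. By total reads the 17 became 11 without female replicate 5. For the fits without single libraries the share of all genes is not given here. The genes of a cluster share libraries and vary together, so these counts are not counts of independent genes. The untested members by unique reads were Hoxa4, Hoxa6, Hoxb1, Hoxd1 and Hoxd3.

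The direction went by cluster and by place in it. Of 7 genes in groups 10 to 13 of HoxA and HoxD, a grouping made after values were seen, 7 had a lower mean in females, with a median log2 fold change (female minus male) of -0.49, and 6 had an unadjusted p under 0.05. Of the 9 tested HoxB genes 8 were higher in females, with a median of 0.39 over the 9, and all 9 HoxC genes were, with a median of 0.29. Groups 10 to 13 of HoxC, which act at the same level of the body as the first set, had a median of 0.38, with 4 of 4 higher in females. Among all tested genes 52.1% were higher in females, and the median log2 fold change was 0.0048. None of these genes passed adjustment in either direction, so these are values and not calls.

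**Figure D3:**
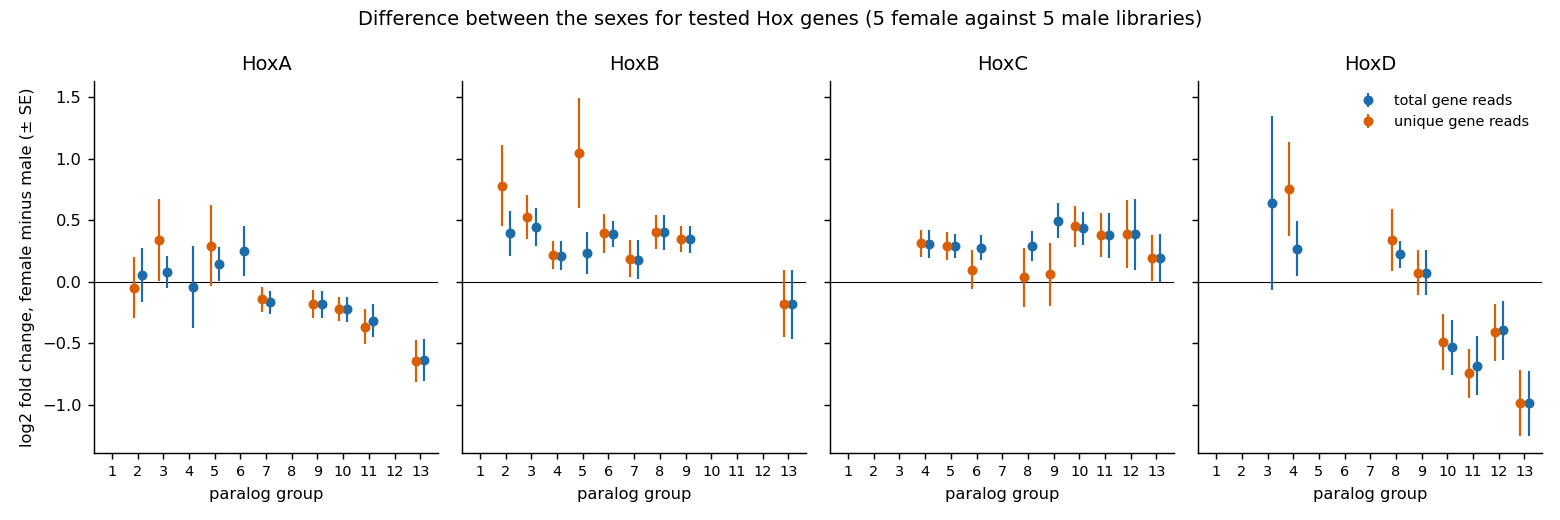
Log2 fold change, female minus male, of tested Hox genes by cluster and paralog group, each with its standard error, from unique and from total gene reads in edgeR. HoxC points lie above 0, HoxA and HoxD groups 10 to 13 lie below 0, and no gene was called.

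Hoxd13, which acts in the digits and the hind end of the body, had the widest difference among the 7. Unique gene reads gave 15.7, 17.5, 30.5, 17.7 and 34.6 CPM in male replicates 1 to 5 and 9.16, 10.3, 13.2, 16.4 and 9.46 in female replicates 1 to 5. Male replicates 3 and 5 stood above all others, the other 3 males lay close together, and the highest female lay within the male range. The log2 fold change was -0.99 ± 0.27 (SE), with an adjusted p in edgeR of 0.563, and it stayed between -1.14 and -0.80 when each library was left out in turn. In the authors' deposited table, which holds their own test of the sexes, Hoxd13 had a signed fold of -1.98, with the sign negative for genes lower in females, and a false discovery rate of 0.0129. In the authors' deposited table it was the only 1 of the 39 with a rate under 0.05, and 17 had a p-value under 0.05. The share of all genes at these thresholds in the authors' test was not computed here. Their folds also differ from those of unique reads where few reads are unique. Hoxb5 and Hoxc9 had 1.18 and 1.41 there, against linear folds of 2.07 and 1.04 by unique reads. By total reads both genes were close to the authors' folds, with log2 fold changes of 0.23 and 0.50.

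Hoxa13, the paralog that shares the digit and genital roles of Hoxd13, gave 5.38, 6.50, 10.1, 6.55 and 8.76 CPM in male replicates 1 to 5, and in the females 4.34, 5.44, 4.08, 5.84 and 4.11. The same male libraries, 3 and 5, were highest, and 2 females overlapped the lowest male. Its log2 fold change was -0.65 ± 0.17 (SE; edgeR adjusted p = 0.448). Hoxd11, a gene of the forearm, was at 4.21, 5.02, 7.91, 4.11 and 6.82 CPM in males and 3.33, 2.59, 4.08, 3.90 and 2.78 in females. Here the sexes did not overlap, a state that held for 0.602% of all tested genes in that direction, but by total gene reads they did, at 5.29 to 11.8 CPM in males and 3.54 to 6.58 in females. The log2 fold change of Hoxd11 was -0.75 ± 0.20 by unique and -0.68 ± 0.24 by total reads.

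Hoxa11, the HoxA gene of the forearm, was at 11.1, 14.4, 14.96, 12.2 and 13.3 CPM in males and 11.2, 12.3, 9.26, 11.5 and 6.92 in females, with a log2 fold change of -0.36 ± 0.14. Hoxd10 and Hoxd12 had -0.49 ± 0.23 and -0.41 ± 0.23, and Hoxa10, a gene of the upper limb and hind body, -0.22 ± 0.10. Hoxa9 and Hoxa7, just below them in the cluster, had -0.18 ± 0.11 and -0.14 ± 0.10. Hoxd9 and Hoxd8 had 0.07 ± 0.18 and 0.34 ± 0.25 by unique reads, and 0.07 ± 0.18 and 0.22 ± 0.11 by total reads. Hoxd10 had -0.53 ± 0.22 by total reads, so on both scales the sign within HoxD turned between groups 9 and 10. The sign of Hoxd9 was negative, at -0.013 and -0.014, without male replicate 3 and without female replicate 2.

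In HoxB, Hoxb9 was at 53.9, 49.3, 41.4, 56.0 and 36.2 CPM in males and 64.8, 64.7, 59.96, 58.2 and 53.3 in females. The males that were highest in Hoxd13, replicates 3 and 5, were the lowest 2 libraries here, and the sexes overlapped through 1 female. The log2 fold change was 0.35 ± 0.11 (edgeR adjusted p = 0.615). Hoxb8, a trunk gene, was at 7.23, 7.38, 4.36, 7.15 and 5.20 CPM in males and 7.53, 8.91, 7.72, 8.54 and 8.81 in females. The sexes did not overlap for Hoxb8 by unique or by total gene reads, which held for 0.373% and 0.351% of all tested genes in that direction. Its log2 fold change was 0.40 ± 0.14 (edgeR adjusted p = 0.670).

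Hoxb3, which acts in the hindbrain and neck, was at 3.56, 2.59, 3.01 and 3.29 CPM in males 2 to 5, at 5.60 in male replicate 1 and at 4.24 to 5.66 in females. Its log2 fold change was 0.53 ± 0.18 with an adjusted p of 0.663 in edgeR. Introns held 91.7% of its unique gene reads, and unique exon reads alone gave 0.38 ± 0.38. Without male replicate 1 the log2 fold change by unique gene reads was 0.74. The gene was then called in edgeR with an adjusted p of 0.0445, among 36 called of 16873 tested genes. By total reads 0 Hox genes were called without that library. Hoxb6 had 0.39 ± 0.16 by unique and 0.39 ± 0.11 by total reads. Hoxb5 and Hoxb2, with 109 unique of 1303 total reads and 278 of 2881, had other values on the other scale. By unique reads they were at 1.05 ± 0.45 and 0.78 ± 0.33, and by total reads at 0.23 ± 0.17 and 0.39 ± 0.18. The cause of this gap was not tested. Hoxb13, apart from the rest of HoxB by position, had -0.18 ± 0.27, and 0.08 without male replicate 4.

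In HoxC, Hoxc10, which acts at the level of the hind limb, was at 5.38, 5.82, 6.34, 10.98 and 6.01 CPM in males and 8.89, 10.2, 9.70, 8.74 and 9.54 in females. Male replicate 4 lay above every female, and the other 4 males below every female. The log2 fold change was 0.45 ± 0.17, with an adjusted p of 0.742 in edgeR. Without male replicate 4 it was 0.68, and the gene was called in edgeR with an adjusted p of 0.0125, among 19 called of 16958 tested genes. Hoxc4 and Hoxc5 had 0.31 ± 0.11 and 0.29 ± 0.11.

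The overlapped HoxC genes had other values on the other scale. By unique reads Hoxc6, Hoxc8 and Hoxc9 had log2 fold changes of 0.10 ± 0.16, 0.04 ± 0.24 and 0.06 ± 0.25, and by total reads 0.28 ± 0.10, 0.29 ± 0.12 and 0.50 ± 0.14. Hoxc9, a gene of the lower trunk, was at 6.20, 4.63, 4.31, 7.53 and 6.16 CPM in males and 8.44, 8.56, 8.17, 6.996 and 8.54 in females by total reads, with 1 male above the lowest female. Its adjusted p was 0.531 in edgeR on total reads and 0.999 on unique reads. Of the 9 HoxC genes, 3 had an unadjusted p under 0.05 by unique reads and 6 by total reads.

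**Figure D4:**
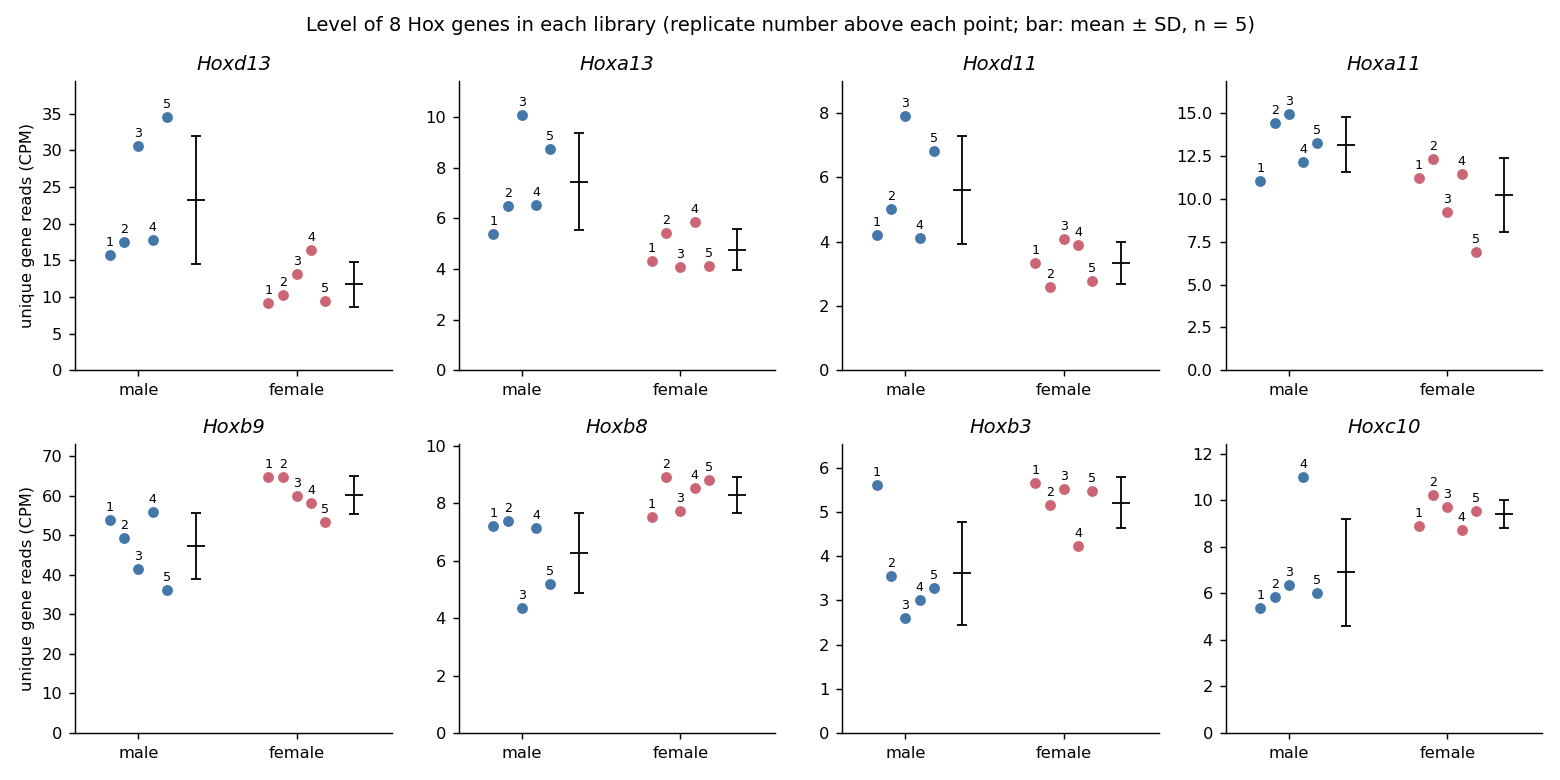
Unique gene reads in CPM for 8 Hox genes in each library, with the replicate number above each point and the mean ± SD of each sex (n = 5) beside it. Male replicates 3 and 5 are the highest in Hoxd13, at 30.5 and 34.6 CPM, and the lowest in Hoxb9, at 41.4 and 36.2 CPM.

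Libraries also differed from each other, within and between the sexes. The coefficient of variation of CPM over the 10 libraries had a median of 25.8% over tested Hox genes, against 12.5% over all tested genes. It reached 49.4% in Hoxd13, where the highest library had 3.77 times the lowest. This measure takes in the sex difference and counting noise. The biological coefficient of variation from edgeR, fitted with sex in the model, had a median of 0.194 over tested Hox genes against 0.124 over all. The summed CPM of the 7 HoxA and HoxD genes of groups 10 to 13 was 64.5, 77.3, 107, 73.2 and 102 in male replicates 1 to 5 and 57.1, 60.1, 60.8, 72.5 and 48.0 in females. The 18 tested HoxB and HoxC genes gave 127, 117, 101, 134 and 95.3 in males and 143, 149, 149, 137 and 142 in females. The second sum divided by the first was 0.939 and 0.930 in male replicates 3 and 5, between 1.51 and 1.97 in the other males and between 1.89 and 2.95 in females.

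The tie between genes was then described over all pairs of tested Hox genes, with log2 CPM of unique reads. Among the 21 pairs within the 7 genes, Pearson's r was positive in 21, with a median of 0.81 and a range from 0.48 to 0.94. Between these 7 and the HoxB and HoxC genes, 126 pairs had a median of -0.53. Within HoxB and HoxC together 153 pairs had a median of 0.35. With the mean of each sex removed these medians were 0.75, -0.32 and 0.19, and with total reads 0.79, -0.67 and 0.53. Pairs in the same paralog group but in other clusters had a median of 0.24 over 32 pairs, and all pairs of tested genes in the table a median of 0.00. All pairs share the same 10 libraries, and the 7 genes were grouped after values were seen, so these medians describe the libraries only.

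**Figure D5:**
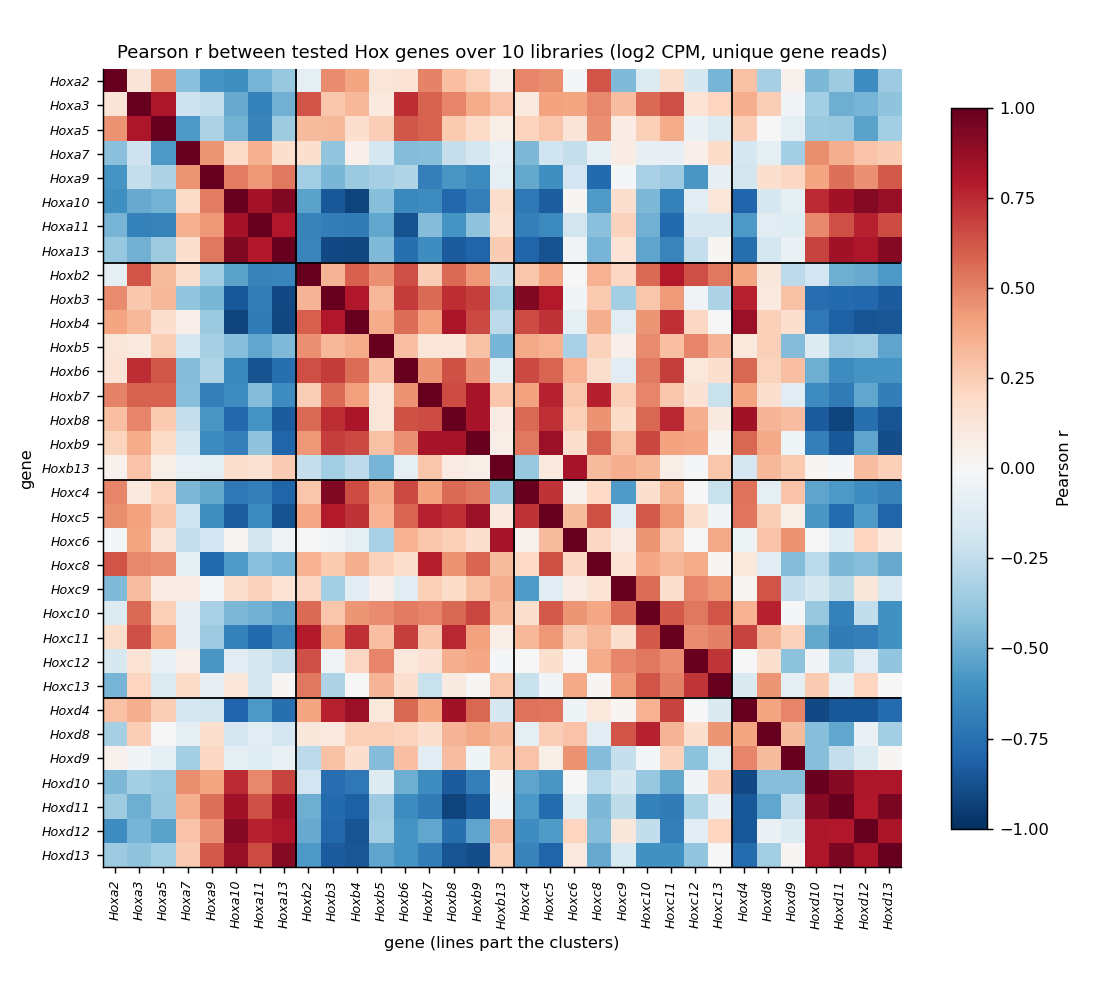
Pearson's r of log2 CPM over 10 libraries for pairs of tested Hox genes, ordered by cluster and paralog group, with lines between clusters. The block of HoxA and HoxD groups 10 to 13 is positive throughout, from 0.48 to 0.94, and is mostly negative against HoxB and HoxC, with a median of -0.53.

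Of 14 gene pairs, chosen with earlier results of these data known, 5 had a permutation p for r under 0.05 after adjustment over the pairs. Hoxd11 and Hoxd13 had r = 0.94 and rho = 0.85, with adjusted permutation p of 0.00378 and 0.0136. Hoxa13 and Hoxd13, the HoxA and HoxD members of the last paralog group, had r = 0.92 and rho = 0.88 (adjusted permutation p of 0.00399 and 0.0118). Hoxa11 and Hoxa13 had r = 0.80 (adjusted permutation p = 0.0125). Hoxb9 and Hoxd13 went the other way, with r = -0.88 and rho = -0.75 (adjusted permutation p of 0.00574 and 0.0415), as did Hoxd4 and Hoxd13, at opposite ends of HoxD, with r = -0.77. That pair rests on the scale, since total reads gave r = -0.58 with an adjusted permutation p of 0.132. Total reads in turn gave r = -0.77 for Hoxa5 and Hoxa13 (adjusted permutation p = 0.0278), against -0.36 by unique reads. For Hoxb9 and Hoxc9 they gave 0.70 (adjusted permutation p = 0.0531), against 0.29. Hoxa5 and Hoxc9 have unique shares of 10.3% and 9.27%.

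These relations were also computed with the sex means removed and with a few libraries left out. With the sex means removed and libraries permuted within each sex, r was 0.86 for Hoxd11 and Hoxd13, 0.80 for Hoxa13 and Hoxd13 and -0.76 for Hoxb9 and Hoxd13, and 0 of the 14 pairs passed, with a smallest adjusted permutation p of 0.103. Without the 2 libraries farthest from the median of the first gene, r was 0.85, 0.77 and -0.57 for the same pairs, and 0 of 14 passed in an exact permutation test, with a smallest adjusted p of 0.120. The libraries left out for Hoxd11, Hoxa13 and Hoxb9 are male replicates 3 and 5. In the 8 libraries left, the unadjusted exact permutation p was 0.00987 for Hoxd11 and Hoxd13 and 0.0363 for Hoxa13 and Hoxd13, so these pairs lost the adjusted call while r stayed high. For Hoxb9 and Hoxd13 that p was 0.143, with r = -0.57. When single libraries were left out, r of this pair stayed between -0.96 and -0.81. The 2 libraries were left out as the farthest for Hoxb9, so a weaker r was in part built in. The drop therefore does not show what the relation rests on. For Hoxa11 and Hoxa13 the 2 libraries left out are female replicates 3 and 5, not those males. There r was 0.81, beside 0.80 in all libraries. Hoxa9 and Hoxd9, of 1 paralog group, had r = 0.20 with all libraries and -0.69 without male replicate 5.

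Genes that work with or beside the Hox genes were read from fixed lists. The TALE homeodomain proteins bind DNA together with Hox proteins, and all 9 of their genes were tested and 0 called, with 8 of 9 higher in females and a median log2 fold change of 0.09. Meis1, a cofactor of the upper limb, was at 63.6, 46.9, 38.7, 44.5 and 36.3 CPM in males and 55.0, 50.8, 68.3, 52.6 and 65.4 in females, lowest in the male libraries 3 and 5 (log2 fold change 0.34 ± 0.15, edgeR adjusted p = 0.862). Of 13 tested regulators of the clusters, Kdm6a, an X-linked gene for an enzyme that removes H3K27 methyl marks, was called, at 0.48 ± 0.06 with an adjusted p of 0.00158. Ezh2, Suz12 and Eed, of the Polycomb complex that lays these marks, stood at 0.03, -0.03 and -0.01 on the same scale.

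The list of antisense and noncoding genes of the clusters had 17 measured members, of which 8 were tested and 0 called. Hoxa11os, which runs antisense to Hoxa11, was at 7.57, 7.90, 9.22, 7.21 and 8.32 CPM in males and 5.20, 6.75, 5.68, 6.74 and 5.11 in females. The sexes did not overlap for Hoxa11os, a state that held for 0.602% of all tested genes in that direction. Its log2 fold change was -0.45 ± 0.11 (edgeR adjusted p = 0.428), beside -0.36 for Hoxa11. Hotairm1, at the other end of HoxA, had 0.41 ± 0.17. The microRNA genes Mir10b, Mir196a-2, Mir196b and Mir615 were listed at 0 in all libraries.

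Among 27 tested limb and body-position factors 0 were called, 18 were lower in females, and the median log2 fold change was -0.13. Lhx2, of the limb tip, was at 2.02, 2.06, 4.04, 2.66 and 4.49 CPM in males and 1.19, 1.41, 1.26, 1.71 and 1.52 in females (-1.10 ± 0.23, edgeR adjusted p = 0.158). Msx1, also of the limb tip, was at 1.34, 1.51, 4.64, 1.82 and 2.94 CPM in males and 0.758 to 1.35 in females. For Lhx2 the sexes did not overlap, which held for 0.602% of all tested genes in that direction. Both genes were highest in male replicates 3 and 5, the libraries highest in Hoxd13. The forelimb factor Tbx5 and the hindlimb factors Tbx4 and Pitx1 had -0.48 ± 0.23, -0.13 ± 0.20 and -0.02 ± 0.18. Of 14 tested retinoic acid genes 0 were called, with a median of -0.08.

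Of 13 tested markers of cartilage and bone 0 were called, and the smallest adjusted p in edgeR was 0.0669. The mean was lower in females for 10 of them, the median log2 fold change was -0.46, and 4 had an unadjusted p under 0.05, against 5.55% of all genes. The 16 in the list summed to between 801 and 1198 CPM in males and between 621 and 949 in females, most of it Spp1. Col2a1, the main collagen of cartilage, was at 12.5, 18.3, 26.6, 44.0 and 46.3 CPM in males and 4.99, 16.05, 8.02, 9.80 and 17.1 in females. Matn1, a cartilage matrix gene, was close to 0 in all libraries, at 11 reads in all. Male replicate 4 was high in Col2a1 and not in Hoxd13, and Hoxd13 with Col2a1 had r = 0.69 (adjusted permutation p = 0.0624). Of the other lists, 2 of 9 neural, 2 of 9 macrophage, 2 of 7 endothelial, 4 of 7 epithelial and 0 of 4 muscle markers had an unadjusted p under 0.05, against the same 5.55%, and 0 were called. The part of other cell types in the Hox values was not tested.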

How the data were processed

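RNA of 10 libraries was measured, 5 male and 5 female, with replicate numbers from the sample titles. The authors deposited whole-number read counts per gene, unique and total, for exons, introns and exon junctions, per the file headers. Coordinates are on mm10 (the submitters' processing notes name that build), and for the aligner and the counter a name is not given in the sources used. Exon length in bases and gene position are taken from the authors' deposited columns, and all 39 positions equal GENCODE M21. The authors also deposited a p-value, signed fold and false discovery rate per gene from an EDGE test. Another 70 value columns were left unused.

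Sexes were compared with edgeR 4.0.16 (R 4.3.3) on unique gene reads over all genes: filterByExpr with a minimum count of 10, TMM, robust quasi-likelihood test, two-sided, Benjamini-Hochberg. DESeq2 1.42.0 and limma-voom 3.58.1 were alternatives, with others given in the closing section. CPM values are TMM-scaled, with a prior count of 2 for log2 CPM, and SE is the log2 fold change divided by the root of F. Pair correlations use log2 CPM with 100000 two-sided permutations, permutations within each sex where sex means were removed, and exact permutations with 9 or fewer libraries. Scripts were tested on simulated data. Libraries of a sex differed by more than sampling noise, so none was counted as a copy. The members, lists and pairs were chosen with earlier results of these data known. By rule, any Hox gene or member of a list could be named, the smallest p first, and of marker lists the highest, the lowest and any called. Col2a1 is named as a member of a tested pair, and the grouping of HoxA and HoxD genes was chosen after values were seen. The values of 1 member and 1 listed gene are not reported here, and the member is not drawn, though both entered every fit and count.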

Additional observations from a re-analysis of the deposited data

Results flagged for a closer look

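In 7 of 68 groups, each a tested Hox gene in 1 sex, a library lay far from the other 4 by Dixon's criterion, which chance meets in about 1 group in 20. Male replicate 1 had 1.48 CPM of Hoxa2, a hindbrain gene, against 0.638 to 0.833 in the other males. Male replicate 5 had 12.1 CPM of Hoxa9 against 8.22 to 9.24, and female replicate 1 had 9.27 against 7.81 to 8.17. Male replicate 3 had 0.384 CPM of Hoxb5 against 0.114 to 0.174, a value that rests on few unique reads. Male replicate 4 stood out in Hoxb13, with 2.49 CPM against 1.03 to 1.39, and in Hoxc10, with 10.98 against 5.38 to 6.34. Female replicate 5 had 6.34 CPM of Hoxc11 against 3.44 to 4.25.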

How the results depend on the processing

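The count of called Hox genes was 0 under each setting tried, except that leaving out single libraries gave 0 to 1, with 1 call without male replicate 1 (Hoxb3) and 1 without male replicate 4 (Hoxc10, also by total reads, where the range was 0 to 1). Over all genes the calls were 15 in edgeR, 70 in DESeq2, 30 without a filter and 36 without male replicate 1. The smallest adjusted p of a Hox gene in DESeq2 was 0.0523 by unique and 0.073 by total reads. The median log2 fold change of tested Hox genes was 0.14 to 0.25 without single libraries. The HoxC share moved from 19.5% to 27.7% with total exon reads, and the pooled intron share from 15.9% to 25.8% with total reads. The pairs that passed, 5 with all libraries and 5 to 6 without single ones, came to 0 with sex means removed and 0 without the 2 farthest libraries, each by unique or total reads.

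Whether replicate numbers pair the samples is not settled here. Correlations of same-numbered libraries were all positive, at 0.082, 0.074, 0.14, 0.043 and 0.24. Those of male with female libraries under other numbers ran from -0.25 to 0.13. With the replicate block in edgeR 0 Hox genes and 43 of all genes were called, and the smallest adjusted p of a Hox gene was 0.0595 (Hoxb9). The median log2 fold change was 0.21, and 0 pairs passed over the 5 within-number differences. There r was -0.048 for Hoxb9 with Hoxc9, -0.040 for Hoxc6 with Hoxc10 and -0.15 for Hoxd13 with Col2a1, with signs reversed.

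Of the log2 fold changes recomputed, 24 reversed, in 5 genes near 0. By total reads Hoxa2 became 0.054, with DESeq2 0.055 and with the replicate block 0.081, and 0.25, 0.026, 0.051, 0.063, 0.079, 0.073 and 0.11 without male replicates 1, 2 and 5 and female replicates 1 to 4. Without single libraries by unique reads, Hoxa2 ranged from -0.17 to 0.19, Hoxb13 from -0.31 to 0.082, Hoxc8 from -0.15 to 0.18, Hoxc9 from -0.051 to 0.25 and Hoxd9 from -0.014 to 0.21. By total reads Hoxb13 became 0.080 without male replicate 4, and Hoxd9 -0.015 and -0.012 without male replicate 3 and female replicate 2. Of the pairs, r ranged from -0.69 to 0.35 for Hoxa9 with Hoxd9, -0.17 to 0.42 for Hoxa5 with Hoxb5 and -0.0035 to 0.55 for Hoxc10 with Pitx1 without single libraries. Without the 2 farthest libraries these were -0.62, -0.44 and -0.40, and by total reads -0.71 for Hoxa9 with Hoxd9 and -0.48 for Hoxc10 with Pitx1. With sex means removed, total reads gave -0.059 for Hoxc6 with Hoxc10. The cause was not tested. Genes with few unique reads, such as Hoxb5, are limited by counting error.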
